A study of Drosophila melanogaster with 22 samples.

Results

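The minichromosome maintenance (MCM) helicase subunits and proliferating cell nuclear antigen (PCNA) were followed in cultured Drosophila S2 cells treated with dsRNA against subunits of the RNA exosome. Probe sets were taken by gene symbol, with dpa standing for Mcm4 and mus209 for PCNA. Of the 7 genes sought, 6 had a probe set in the platform annotation used here (Mcm2, Mcm3, dpa, Mcm5, Mcm6 and PCNA, 1 probe set each), and Mcm7 was not analysed here. All 6 passed the filter on dim signal, among 9385 probe sets tested of 18769. Their lowest log2 signal was 7.18, far above the floor set on low signals, so no size below rests on that floor.

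Messenger RNA was measured on 22 one-colour Affymetrix arrays. The control group received dsRNA against GFP, which S2 cells lack (2 arrays). The treated groups received dsRNA against Csl4, Rrp40, Mtr3, Rrp46, Ski6, Dis3, Rrp6 or Rrp47 (2 arrays each) or Rrp4 (4 arrays). In every group dsRNA was added at 30 µg/ml on days 0, 1 and 3 and cells were lysed on day 5. S2 is an embryo-derived line with blood cell character, so 1 line stands for all groups, and these are transient treatments rather than mutants. Titles call the depletion arrays biological replicates, but separate cultures are not stated, so p-values measure the spread between arrays, which may be technical. In bulk RNA, fewer cells expressing a gene and less RNA per cell cannot be told apart.

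The MCM subunits form a ring-shaped hexamer that is loaded onto replication origins in G1 and, after activation by Cdc45 and the GINS complex, unwinds DNA ahead of the fork. PCNA is the sliding clamp that encircles DNA behind the fork and holds DNA polymerases and repair and chromatin assembly factors on it. In flies these genes are known targets of E2F with its partner Dp, which raise their transcription as cells enter S phase, and the factor DREF also binds the PCNA promoter. S2 cells divide continuously, so the genes are expressed in the control state.

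Some arrays stood apart before any gene was considered. The deposited intensities of the 4 Rrp4 arrays had a trimmed mean of 500, against 125.9 to 345.6 on the other 18, and on those arrays the log2 signal of poly-A spikes minus that of hybridization spikes was -5.38 to -3.46, against -0.42 to 0.58 elsewhere. Log2 signal for 18S ribosomal RNA was 7.97 and 9.90 on the GFP arrays and 6.69 to 13.66 on depletion arrays. Of the 9 targeted genes, 2 fell in their own arrays (Dis3 and Rrp6), 4 rose (Csl4, Rrp40, Ski6 and Rrp47) and 3 did not pass, so groups are named by their labels. Of 8 hemocyte markers 6 were tested over all depletions against GFP, and 2 rose and 2 fell, including Pxn by 2.97 ± 0.21 and Hml at -1.57 ± 0.31 (log2 change ± SE, limma adjusted p = 1.8e-08 and 0.0014). Of 15 markers of other cell types 3 had no probe set, 6 were below the filter on dim signal, with the muscle genes up and Tm2 at the floor on 9 and 13 arrays, and 6 were tested. Of these 6, bam, a germline differentiation factor, rose by 2.27 ± 0.32 (adjusted p = 6.3e-05) and 5 were not called. The part of these markers in what follows was not tested.

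All 6 genes were higher in the mean of the 9 depletions than in GFP. With both GFP arrays the changes were 2.70-fold in Mcm5, 2.62-fold in Mcm2, 2.60-fold in PCNA, 1.96-fold in Mcm3, 1.71-fold in dpa and 1.51-fold in Mcm6. Their order depends on the control array, with Mcm2 highest without GFP 1 (log2 change of 1.31, and PCNA at 0.71 below Mcm3 at 0.74) and PCNA highest without GFP 2 (2.03). The median log2 change of the 6 genes was 1.17, against -0.03 for all probe sets tested. Changes come from 1 limma model of 10 group means over the 22 arrays, after quantile normalization, and a call is a Benjamini-Hochberg adjusted p under 0.05 over all tested probe sets. In this comparison 11.7% of tested probe sets were called higher. Without GFP 1, only Mcm2, Mcm5 and PCNA stayed called and that share was 6.64%.

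**Figure D1:**
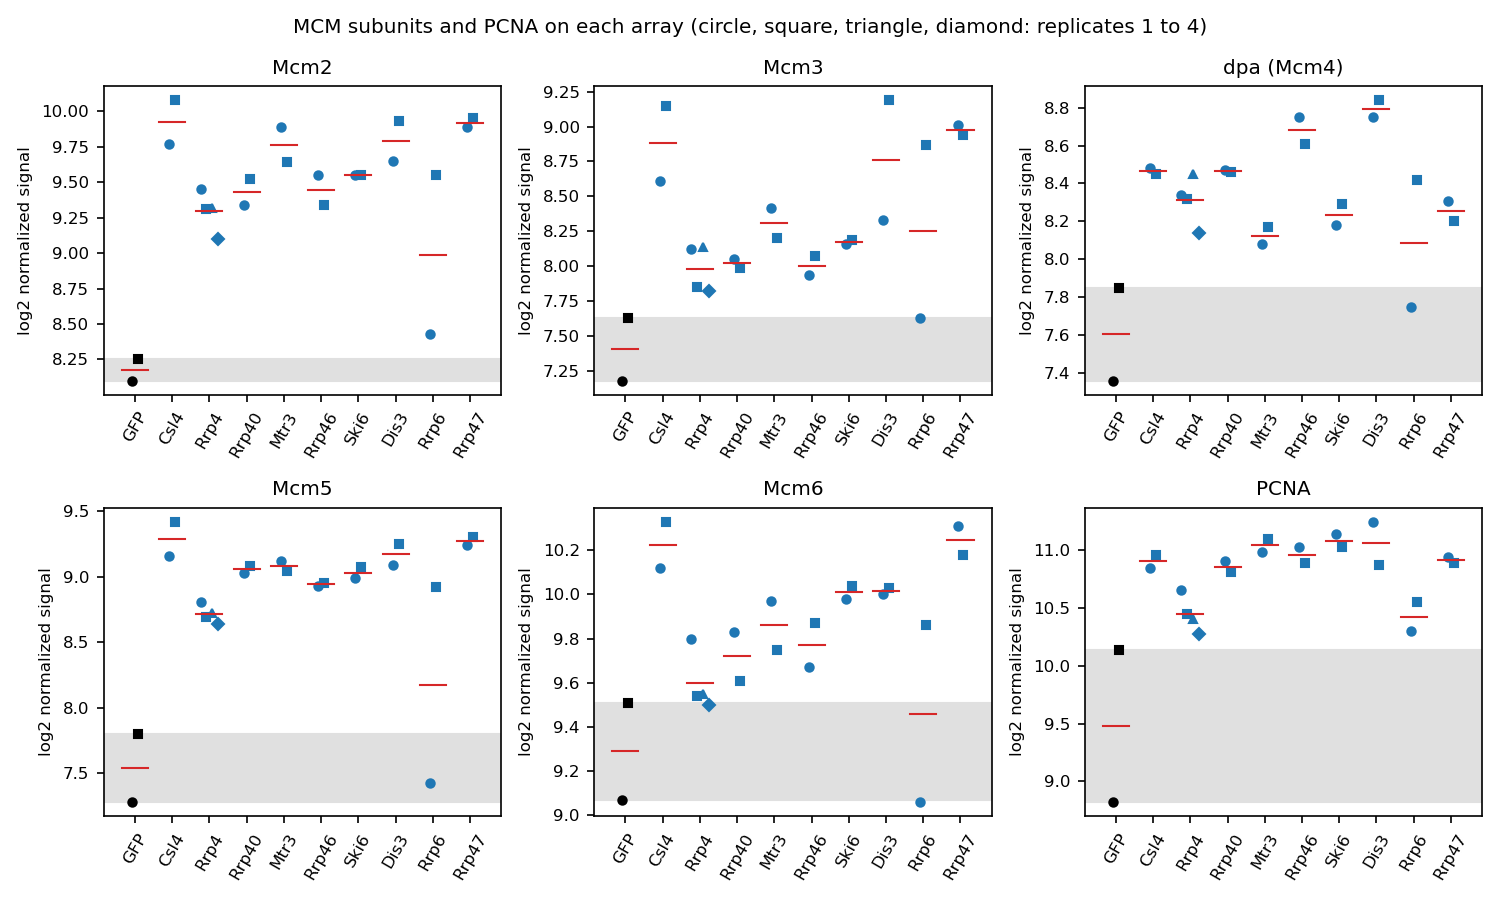
Log2 normalized signal (y axis) of each gene on each of the 22 arrays, by dsRNA group (x axis). Points are arrays, red lines group means, and the grey band spans the 2 GFP arrays. All 20 depletion arrays lie above the band for Mcm2 and PCNA, and Rrp6 array 1 lies in or next to it for all the MCM genes.

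Among the helicase subunits, Mcm2, whose N-terminal tail binds histones in yeast and human, had the closest pair of control values. Its log2 signal was 8.10 and 8.25 on the GFP arrays. In the cap and ring subunit groups it was 9.77 and 10.08 in Csl4, 9.34 and 9.52 in Rrp40, 9.89 and 9.64 in Mtr3, 9.55 and 9.34 in Rrp46, 9.55 and 9.55 in Ski6, and 9.45, 9.31, 9.32 and 9.10 in Rrp4. It was 9.65 and 9.93 in Dis3, 8.43 and 9.55 in Rrp6, and 9.89 and 9.95 in Rrp47. All 20 depletion arrays lay above both GFP arrays, which held for 2.84% of tested probe sets. The lowest, Rrp6 1, was 0.18 above the higher GFP array and the next lowest, Rrp4 4, was 0.85 above it. Over all depletions Mcm2 rose by 1.39 ± 0.19 (log2 change ± SE, adjusted p = 3.4e-05), and it was the least dependent on which GFP array was used, at 1.31 without GFP 1 and 1.47 without GFP 2.

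Mcm5, which with Mcm2 forms the gate of the ring, rose by 1.43 ± 0.22 on average (adjusted p = 0.00016), within 1 SE of Mcm2 and PCNA, and by 1.17 without GFP 1 and 1.69 without GFP 2. Its signal was 7.28 and 7.80 on the GFP arrays. It was 9.16 and 9.42 in Csl4, 9.03 and 9.08 in Rrp40, 9.12 and 9.04 in Mtr3, 8.93 and 8.95 in Rrp46, 8.99 and 9.07 in Ski6, and 8.64 to 8.81 in the 4 Rrp4 arrays. Dis3 gave 9.09 and 9.25, Rrp47 gave 9.24 and 9.30, and Rrp6 gave 7.43 and 8.92. Thus 19 of 20 depletion arrays lay at least 0.84 above both GFP arrays, and the remaining one, Rrp6 1, lay between them. For this count, and those of Mcm6 and dpa below, the share over all tested probe sets is not given here.

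Mcm3 and Mcm6, further subunits of the ring, had smaller mean changes than Mcm2 and Mcm5. Mcm3 read 7.18 and 7.63 in GFP, and its depletion arrays ran from 7.63 (Rrp6 1) through a median of 8.17 to 9.19 (Dis3 2). It was highest in Rrp47 (9.01 and 8.94) and Csl4 (8.61 and 9.15). Its mean change was 0.97 ± 0.24 (adjusted p = 0.0066). Mcm6 read 9.07 and 9.51 in GFP and ran from 9.06 (Rrp6 1) through 9.87 to 10.33 (Csl4 2). Of its 20 depletion arrays 18 were above both GFP arrays, with Rrp4 4 (9.50) just below GFP 2 and Rrp6 1 just below GFP 1. Its mean change of 0.59 ± 0.16 (adjusted p = 0.011) was the smallest of the 6.

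The gene dpa (disc proliferation abnormal) encodes Mcm4, another subunit of the ring. Its signal was 7.36 and 7.85 in GFP, and 19 of 20 depletion arrays lay above both, with Rrp6 1 at 7.75 below GFP 2. It was highest in Dis3 (8.75 and 8.84) and Rrp46 (8.75 and 8.61) and, apart from Rrp6, lowest in Mtr3 (8.08 and 8.17). Its mean change was 0.77 ± 0.15 (adjusted p = 0.00085).

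The clamp gene PCNA was the least certain in its control level. GFP 1 read 8.82 and GFP 2 read 10.14, a gap of 1.32 that exceeded the gap of 95.2% of tested probe sets. Its depletion arrays were 10.85 and 10.96 in Csl4, 10.91 and 10.81 in Rrp40, 10.99 and 11.10 in Mtr3, 11.03 and 10.89 in Rrp46, and 11.14 and 11.03 in Ski6. Rrp4 gave 10.66, 10.45, 10.41 and 10.28, Dis3 gave 11.25 and 10.87, Rrp6 gave 10.30 and 10.55, and Rrp47 gave 10.94 and 10.89. All 20 lay above both GFP arrays, the nearest (Rrp4 4) by 0.14. Its mean change was 1.38 ± 0.20 (adjusted p = 7.7e-05), but 0.71 without GFP 1 and 2.03 without GFP 2. The size thus depends on the control array more than for any other member. Each of those fits keeps 1 GFP array, so its error holds no spread between controls.

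**Figure D2:**
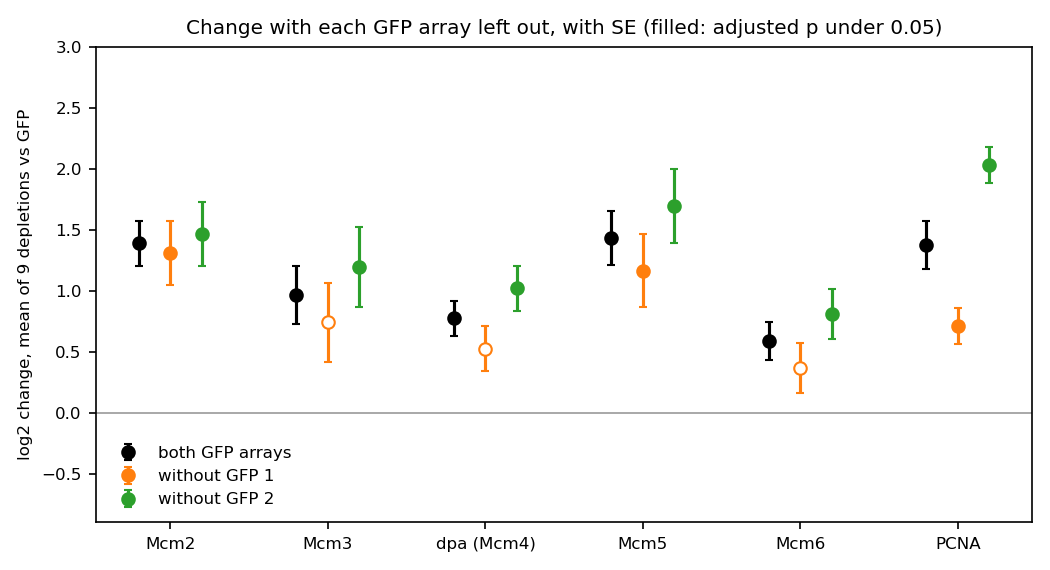
Log2 change of the mean of 9 depletions against GFP (y axis, with SE) for each gene (x axis), with both GFP arrays or with 1 left out. Filled points passed an adjusted p of 0.05. Mcm3, dpa and Mcm6 lose the call without GFP 1 (0.74, 0.53 and 0.37), and PCNA moves from 0.71 to 2.03.

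Each depletion was then set against GFP. These 9 comparisons share the same 2 GFP arrays, so an unusual control value enters all of them. Of 54 pairs of gene and depletion, 40 were called higher and the other 14 were above 0 without passing. Mcm2 and PCNA were called in all 9, as were 0.991% of tested probe sets. Mcm5 was called in 8, dpa in 7, Mcm6 in 4 and Mcm3 in 3. Without GFP 1 the 40 calls became 25, with Mcm2 called in 8, PCNA in 7, Mcm5 in 6, dpa and Mcm3 in 2 each and Mcm6 in 0. Without GFP 2 there were 41.

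All 6 genes rose in the arrays labelled Csl4, Dis3 and Rrp47, where 9.13%, 10.8% and 10% of tested probe sets were called higher. In Csl4, a cap subunit, Mcm5 and Mcm2 rose by 1.75 each (SE 0.30 and 0.25, adjusted p = 0.00051 and 8.9e-05). In Rrp47, the partner of the nuclear exonuclease Rrp6, Mcm2 rose by 1.74 ± 0.25 (adjusted p = 9.8e-05), Mcm3 by 1.57 ± 0.32 (0.0022) and dpa by 0.65 ± 0.20 (0.026). The call of dpa in Rrp47 was lost without GFP 1 (0.40), Rrp47 1 (0.60) or Rrp47 2 (0.70). In Dis3, the catalytic subunit of the core, dpa rose by 1.19 ± 0.20 (adjusted p = 0.00034), its highest change, and Mcm6 by 0.73 ± 0.21 (0.019), the latter not called without GFP 1 (0.51) or Dis3 2 (0.71). Mcm3 in Dis3 lost its call without GFP 1 (1.13, adjusted p = 0.065) or Dis3 2 (0.93, 0.086). In Csl4 the calls lost were Mcm3 without Csl4 2 (1.20, adjusted p = 0.056), Mcm6 without Csl4 2 (0.83) or GFP 1 (0.71), and dpa without GFP 1 (0.61). Mcm6 in Rrp47 was not called without GFP 1 (0.73, adjusted p = 0.051). Both arrays of Csl4, Dis3 and Rrp47 lay above both GFP arrays for every member, and the share of all probe sets with that order is not given here.

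Among the other cap and ring groups, Ski6 had 5 of 6 genes higher, Rrp4, Rrp40 and Rrp46 had 4 and Mtr3 had 3. The shares of probe sets called higher were 11.9% in Ski6, 13.1% in Rrp4, 11% in Rrp40, 10.6% in Rrp46 and 9.92% in Mtr3. Mcm2, Mcm5 and PCNA were the genes called in all 5 of these groups. PCNA was at its highest in Ski6, at 1.60 ± 0.27 (3.04-fold, adjusted p = 0.00033). Mcm3 passed in none of them, with changes of 0.58 ± 0.28 in Rrp4 (adjusted p = 0.14) to 0.91 ± 0.32 in Mtr3 (0.058). That depends on the processing: with median centring Mcm3 was called in Rrp4 (0.86, adjusted p = 0.027), Mtr3 (1.25) and Ski6 (1.02). Over all 9 depletions it was called in 3, but in 6 with median centring and 7 as deposited. With median centring, 7.74% (Rrp6) to 19.2% (Dis3) of all probe sets were called in either direction. As deposited, those shares were 93.8% in Rrp4, 73.5% in Ski6 and 71.3% in Mtr3, and 7.51% (Rrp6) to 43.5% (Rrp47) in the other groups. The gene dpa did not pass in Mtr3 (0.52 ± 0.20, adjusted p = 0.075). Without GFP 1 the count fell to 3 in Ski6 and to 1, Mcm2, in Rrp4. Leaving out either Ski6 array also left 3, and leaving out GFP 2 gave 5 in Mtr3.

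**Figure D3:**
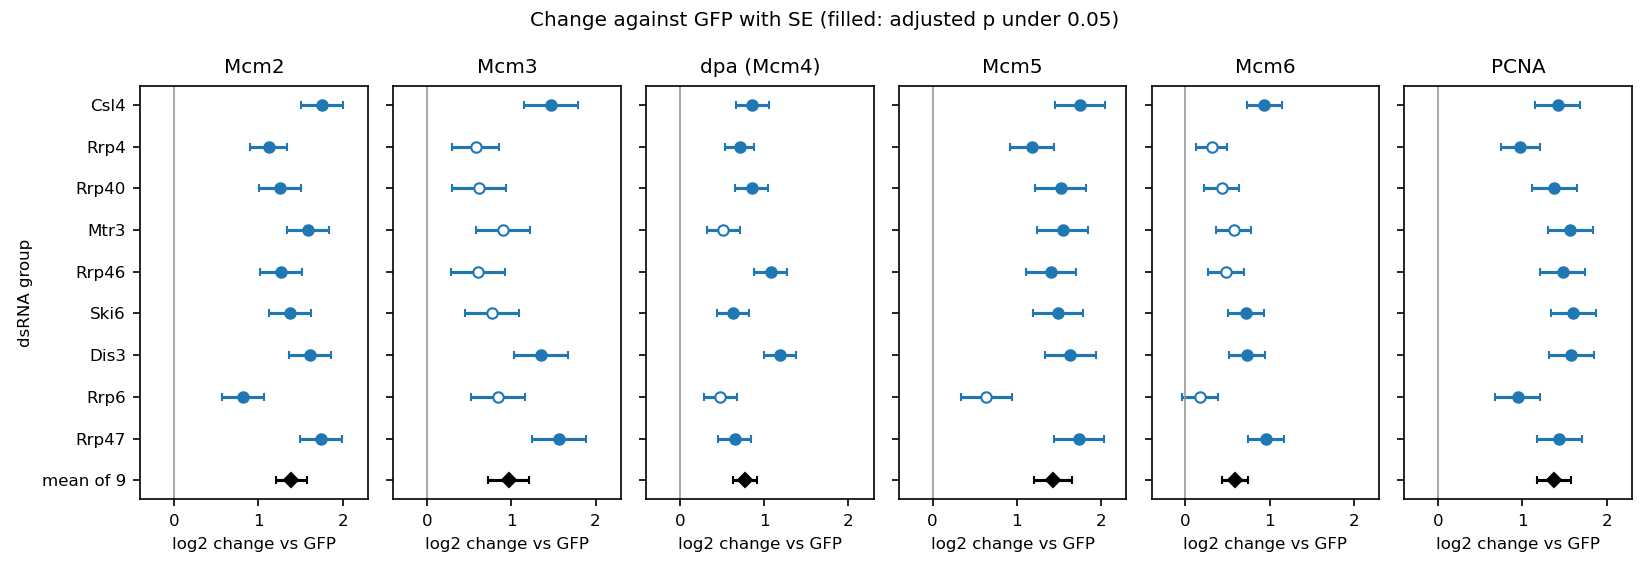
Log2 change against GFP (x axis, with SE) of each gene in each dsRNA group and in the mean of 9 (y axis). Filled points passed an adjusted p of 0.05. Every point lies above 0, from 0.17 for Mcm6 in Rrp6 to 1.75 for Mcm5 in Csl4.

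Rrp6 was the group with the smallest count. Only PCNA (0.94 ± 0.27, adjusted p = 0.036) and, at the edge of the threshold, Mcm2 (0.82 ± 0.25, adjusted p = 0.0499) were called, where 4.33% of probe sets were called higher. Neither was called with the values as deposited or with median centring. The 2 Rrp6 arrays disagreed on every MCM gene. Array 2 was above array 1 by 1.49 for Mcm5, 1.24 for Mcm3, 1.12 for Mcm2, 0.80 for Mcm6 and 0.66 for dpa, but by 0.25 for PCNA. Array 1 lay 0.18 above the higher GFP array for Mcm2 and 0.16 above it for PCNA. For Mcm3, dpa, Mcm5 and Mcm6 it did not lie above both GFP arrays. Without Rrp6 1 the changes against GFP were 1.38 for Mcm5 and Mcm2, 1.46 for Mcm3, 0.81 for dpa and 0.57 for Mcm6. Without Rrp6 2 they were -0.10 for Mcm5, 0.255 for Mcm2, 0.22 for Mcm3, 0.15 for dpa and -0.23 for Mcm6. PCNA was at 0.28 without GFP 1 and 1.60 without GFP 2. Over the 1088 other probe sets called higher in the mean of depletions, the median shift from GFP was 0.39 on Rrp6 1 and 0.41 on Rrp6 2. It was 0.69 (Dis3 2) to 1.09 (Mtr3 2) on the other depletion arrays. These probe sets were chosen with the same arrays, so a rise on them is partly built in. The gap between the Rrp6 arrays exceeded that of 94.3% of tested probe sets for Mcm5, 91.0% for Mcm3 and 88.4% for Mcm2. For Mcm6 and dpa it exceeded that of 76.8% and 68.3%, so many other probe sets differed as much between these arrays. The group also had the widest spacing between its arrays over all tested probe sets, a median absolute log2 difference of 0.435. Dis3 was close at 0.412, followed by Csl4 at 0.343 and GFP at 0.305. The other groups had 0.123 (Rrp46) to 0.23 (Mtr3).

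Differences among the 9 depletions use no GFP level, but the GFP arrays enter the model's estimate of spread. The limma F test called Mcm6 (adjusted p = 0.025), Mcm2 (0.032), Mcm3 (0.034) and dpa (0.043) but not Mcm5 (0.058) or PCNA (0.11). This is 4 of 6, where 57.5% of all tested probe sets were called, so the share is near the background. For PCNA the SD was 0.93 between the GFP arrays and 0.04 to 0.27 within depletions. In a fit without both GFP arrays, added after seeing the data, PCNA was called (adjusted p = 0.0018), Mcm5 was not (0.055), and 5 of 6 genes were called where 59% of probe sets were. The span between the highest and lowest depletion means was 1.11 for Mcm5, 0.99 for Mcm3, 0.93 for Mcm2, 0.78 for Mcm6, 0.71 for dpa and 0.66 for PCNA. With 1 array left out the count ran from 0 to 5, and it was 0 without Csl4 2 or Rrp47 1, 1 without Rrp4 2, Rrp4 4 or Rrp47 2, and 2 without Rrp4 3 or either array of Rrp40, Rrp46 or Ski6.

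Setting each depletion against the mean of the other 8 gave 6 calls in 54 pairs, against 13% of all such pairs over the tested probe sets. These genes were thus called no more often than other probe sets. The arrays labelled Rrp6 were lower than the others for Mcm5 (-0.89 ± 0.22, adjusted p = 0.0072), Mcm2 (-0.65 ± 0.19, 0.016) and Mcm6 (-0.47 ± 0.16, 0.036), where 13.5% of probe sets were called lower. Without Rrp6 1 these were -0.15, -0.09 and -0.07 and none passed, so they rest on that array. The call of Mcm6 was also lost without Rrp40 1, Rrp46 2, Rrp47 1 or Ski6 2, at -0.467 to -0.457 and adjusted p = 0.0504 to 0.0522. The Rrp4 arrays were lower for PCNA (-0.45 ± 0.15, adjusted p = 0.026) and Mcm6 (-0.31 ± 0.12, 0.046), where 17.2% were called lower. Both changed sign with the values as deposited (0.83 and 0.98). The PCNA call was lost without Rrp4 2, Rrp4 3 or Rrp4 4 (-0.45, -0.45 and -0.40), and that of Mcm6 in 13 of 20 cases with 1 array left out, its value staying between -0.38 and -0.26. Rrp4 treatment and the different scaling and spike-in signal of those 4 arrays cannot be told apart. The Dis3 arrays were higher for dpa (0.47 ± 0.15, adjusted p = 0.033), where 9.49% were called higher. That call was lost without Dis3 1 (0.51, adjusted p = 0.072) or Dis3 2 (0.42, adjusted p = 0.26), and with the values as deposited the change was -0.23 (adjusted p = 0.20).

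Subunit classes gave no call for these genes in limma, with 0 and 2 of 6 at an unadjusted p under 0.05 in the comparisons that follow. The 6 core groups against Rrp6 and Rrp47 together differed by -0.38 ± 0.18 for Mcm3 (adjusted p = 0.11) to 0.29 ± 0.17 for Mcm5 (0.18), where 38.7% of probe sets were called. Within that pair Rrp6 had the lowest depletion mean for Mcm2, Mcm5 and Mcm6 and Rrp47 the highest or second highest. With Rrp6 1 left out 1 gene was called, and with Rrp6 2 left out 3 were. The core groups against Dis3 differed most for Mcm3 (-0.53 ± 0.24, adjusted p = 0.12) and dpa (-0.41 ± 0.15, adjusted p = 0.0504), where 24.6% were called. Leaving out Dis3 1 gave 1 call, and leaving out either Rrp6 array gave 2. Without both GFP arrays each core comparison had 1 call, where 40% and 25.7% of probe sets were called.

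The groups were then ordered by mean signal. GFP was lowest for all 6 by group mean, and Rrp6 next lowest for all but Mcm3, where Rrp4 was. Csl4 and Rrp47 held the first and second places for Mcm2, Mcm3, Mcm5 and Mcm6, while dpa was led by Dis3 and Rrp46, and PCNA by Ski6 and Dis3. Of the 9 neighbouring pairs in each order, 7 had overlapping arrays for 5 of the genes and 6 did for dpa, so most steps in these orders are within the spread of the arrays. For Mcm2 the pairs without overlap were Mtr3 above Ski6 and Rrp6 above GFP. For PCNA they were Rrp40 above Rrp4 and Rrp6 above GFP. The share of such pairs over all tested probe sets is not given here.

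The log2 changes of the 6 genes were then set side by side within each depletion. The highest and lowest of them, PCNA included, lay 0.77 (Rrp6) to 1.09 (Rrp40 and Rrp47) apart. The lowest was Mcm6 in 5 depletions and dpa in 4. The change of Mcm2 exceeded that of Mcm6 in every depletion, by 0.64 in Rrp6 to 1.01 in Mtr3. The difference in change between genes was not tested, and probe set signal does not measure the number of helicase molecules.

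Across the 9 depletion means, Mcm2 correlated with Mcm6 and Mcm5 (Pearson r = 0.94 and 0.93), whereas the 5 correlations of dpa were 0.13 to 0.43. These describe 9 means from the same arrays and normalization. In the deviations of arrays from their group means, the 10 correlations among the 5 MCM genes were 0.74 or more, including dpa with Mcm5 (0.86). PCNA gave lower values there, from 0.27 with Mcm2 to 0.64 with dpa. For each MCM gene the widest gap within a group was between the Rrp6 arrays, from 0.66 for dpa to 1.49 for Mcm5. The correlations of deviations lean on that pair of arrays. For PCNA the widest gap was between the GFP arrays (1.32), against 0.25 in Rrp6.

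Genes with the most similar pattern were sought over the 10 group means, by Pearson correlation with the average of the 6 centred members, among 7216 other genes. The 8 highest were mspo (0.970), dnk (0.969), sn (0.968), CG13690 (0.967), rumi (0.965), CG14511 (0.963), Nup93-1 (0.961) and Erasp (0.957). The members themselves gave 0.99 (Mcm2), 0.98 (Mcm5), 0.94 (PCNA), 0.92 (Mcm6), 0.86 (Mcm3) and 0.78 (dpa), so several other genes followed the average more closely than dpa did. Of the 8, dnk encodes the deoxyribonucleoside kinase that salvages DNA precursors and sn the actin bundler fascin. With correlation over the 22 arrays 4 of the 8 stayed among the highest 8, and over deviations from group means 1 did, dnk, which ranked 7. In changes against GFP, dnk was at 0.87 ± 0.16 and mspo at 3.27 ± 0.25.

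Other replication genes were read from 6 lists by role, and their counts are beside the same 11.7% of probe sets called higher over all depletions. Over the 6 lists, 31 of 54 tested genes rose, none fell and 23 did not pass, with a median log2 change of 0.57. Fewer of the 54 were called higher without GFP 1 or GFP 2, and more without Rrp6 1. The share over all tested probe sets moved the same way in each case. The list counts with 1 array left out, given below, are therefore not to be read beside 11.7%.

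The list of origin recognition and licensing, which also holds Mcm10 and the MCM-binding protein Mcmbp, had 5 of 8 tested genes higher. Both were among the 5, Mcm10 at 0.68 ± 0.20 (adjusted p = 0.021) and Mcmbp at 0.77 ± 0.15 (0.0014). The loader dup, the fly Cdt1, rose by 1.16 ± 0.18 (adjusted p = 0.00013) and Orc1 of the origin recognition complex by 0.78 ± 0.18 (0.0039). At the other end Orc4 was at 0.08 ± 0.21 and Orc5 at 0.12 ± 0.25, neither called. Without GFP 1, 2 of the 8 were called.

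Factors that turn the loaded ring into an active helicase had 2 of 9 genes higher and 7 not called, with a list median of 0.25. The genes called were chif, the fly Dbf4 that activates the kinase Cdc7, at 0.91 ± 0.16 (adjusted p = 0.00058) and RecQ4 at 0.83 ± 0.20 (0.0061). Cdc45, which joins MCM in the fork helicase and is named here after its values were seen, was at 0.25 ± 0.16 (adjusted p = 0.285). The GINS subunits Psf3 and Sld5 were lowest at -0.42 ± 0.17 (adjusted p = 0.088) and -0.19 ± 0.21 (0.575). Without GFP 1, 1 of the 9 was called, and without Rrp6 1, 3 were. A difference between this list and the subunits of the ring was not tested.

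The loader and unloader of the PCNA clamp had 5 of 7 genes higher, with RfC3 at 1.04 ± 0.19 (adjusted p = 0.00059) and the unloader elg1 at 1.01 ± 0.13 (2.4e-05). CG8142, a small loader subunit, was at 0.06 ± 0.20 (adjusted p = 0.87) and Gnf1, the large one, rose by 0.39 ± 0.12 (0.024). Proteins that work on PCNA or at the fork had 6 of 10 higher, with Caf1-180 of the chromatin assembly factor at 1.29 ± 0.17 (adjusted p = 2.2e-05) and the polymerase epsilon subunit PolE2 at 0.95 ± 0.15 (0.00014). The lowest were PolE4 (0.22 ± 0.12, adjusted p = 0.23) and the flap nuclease Fen1 (0.23 ± 0.18, adjusted p = 0.40). Without GFP 1 these counts became 2 of 7 and 3 of 10, and without GFP 2 the first became 3.

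Priming, single-strand binding and nucleotide supply had 11 of 11 genes higher, from RPA2 (0.34 ± 0.12, adjusted p = 0.045) and RPA1 (0.50 ± 0.09, 0.00039) to RnrL (1.41 ± 0.15, 3.6e-06) and PolA1 (1.69 ± 0.15, 3.7e-07), but 3 of 11 without GFP 1. The regulators of this gene class had 2 of 9 higher. These were CycE, which drives S phase entry, at 0.72 ± 0.20 (adjusted p = 0.016) and Rbf, the E2F-binding repressor, named after its values were seen, at 0.50 ± 0.10 (0.002). The highest value, 1.24 ± 0.48 for Rbf2, did not pass (adjusted p = 0.074), nor did the lowest, CycD (-0.23 ± 0.21, adjusted p = 0.51) and Dref (-0.10 ± 0.16, adjusted p = 0.72). The activator E2f1 had no probe set named in the annotation used here and was not analysed. Without GFP 1, 1 of the 9 was called, and without Rrp6 2, 4 were.

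**Figure D4:**
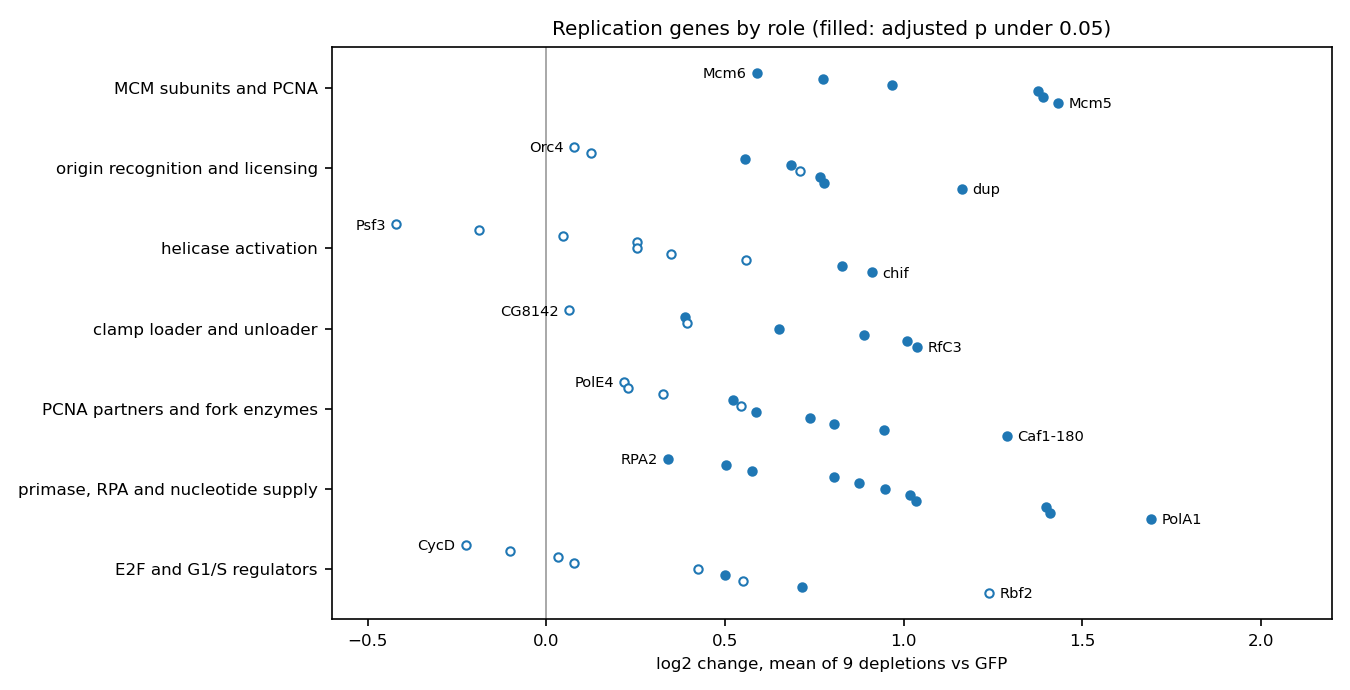
Log2 change of the mean of 9 depletions against GFP (x axis) for each tested replication gene, by list (y axis). Filled points passed an adjusted p of 0.05, and the lowest and highest gene of each list are named. All 6 MCM and PCNA genes and all 11 priming and nucleotide genes are filled, against 2 of 9 for helicase activation.

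Paralogues gave little signal. PCNA2, a PCNA-like gene, and rec, the fly Mcm8 of meiotic recombination, lay below the filter on dim probe sets and were not tested, with PCNA2 at the floor on 5 of 22 arrays.

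Nearest protein-coding neighbours on the chromosome were looked up in RefSeq for the 6 genes. Of 12 neighbours 8 were tested, and 1 rose over all depletions, near the 11.7% of all probe sets called higher, RPA1 beside Mcm2 (0.50 ± 0.09, adjusted p = 0.00039). The others ran from -0.42 ± 0.38 for CG3309, which overlaps Mcm3 in that annotation, to 0.27 ± 0.16 for Art1 beside Mcm5, and none passed.

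The ribosomal RNA signal was set beside the members. The Rrp40 arrays (18S at 7.13 and 8.27) and the Rrp46 arrays (9.30 and 9.74) did not exceed the higher GFP array for 18S, and Mcm2, dpa, Mcm5 and PCNA were called in both groups. The Ski6 arrays, at 13.59 and 13.54, were far above GFP for 18S, and 5 genes were called there, of which dpa and Mcm6 lost the call in 3 of 4 cases with 1 array left out. Other groups with both arrays above 12 for 18S had 6 genes called (Dis3, at 13.66 and 13.59), 3 (Mtr3, at 12.04 and 13.66) and 2 (Rrp6, at 13.17 and 13.53). The part of ribosomal RNA signal in the results was not tested.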

How the data were processed

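Per the labels' protocols, total RNA was labelled with biotin from 6 µg and hybridised to 1-colour Affymetrix arrays. The authors deposited 1 signal intensity per probe set and array, made with GCOS per the submitters' processing notes; its version and scaling are not given in the sources used here. The 22 arrays were grouped by dsRNA label, and every value column was used.

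Intensities were quantile normalized, given a floor at their 10th percentile (3.216) and taken to log2, so that log2 values here come from the deposited intensities. The 183 control probe sets and those below the median mean log2 signal (4.671) were left out. R 4.3.3 and limma 3.58.1 fitted 10 group means (12 residual degrees of freedom, eBayes with trend). Calls used a two-sided Benjamini-Hochberg adjusted p under 0.05. The number of arrays limits the precision. The code was tested on simulated data.

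Probe sets were named from the platform annotation (13647 with 1 symbol, 402 with several, 4720 not listed), updated through RefSeq. Where a gene had several probe sets, the brightest was used. Every member was named, with the 2 highest and 2 lowest genes of each list and the 8 most similar genes. Members and lists were chosen with earlier results of these data known. Alternatives changed scaling, floor, filter, trend, weights, replicate block and arrays.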

Additional observations from a re-analysis of the deposited data

Results flagged for a closer look

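Mcm6 had 1 Rrp4 array apart from the others, at 9.80 against 9.50 to 9.55, so that its gap to the nearest was 0.850 of the group's range. Only Rrp4 has enough arrays for this check, 6 genes were checked, and chance alone flags about 1 in 20 such groups. 6 of 54 differences between 1 depletion and the mean of the other 8 passed the limma test, where 13% of all such pairs did. That is no more often than over all probe sets. On the log2 scale the Rrp6 arrays differed by -0.89 for Mcm5, -0.65 for Mcm2 and -0.47 for Mcm6, with Rrp6 1 low and Rrp6 2 near the other depletions. The Rrp4 arrays differed by -0.45 for PCNA and -0.31 for Mcm6, and the Dis3 arrays by 0.47 for dpa. With the values as deposited these 3 differences were 0.83, 0.98 and -0.23.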

How the results depend on the processing

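The mean change of each of the 6 genes over the depletions kept its direction and its call under the 54 values from alternatives other than leaving out 1 array, and 129 of 132 values with 1 array left out did so. The exceptions were Mcm3, dpa and Mcm6 without GFP 1. The floor at the 20th percentile changed no count. With values as deposited, where the median change of all probe sets was 0.46 in place of -0.03, the counts of genes called became 6 in Mtr3, 0 in Rrp6, 5 for core against Rrp6 and Rrp47, 5 for core against Dis3 and 33 of 54 pairs against the other depletions, where 58.2%, 77.6% and 51.6% of all features were called in the last 3. In the counts that follow, a percentage in brackets is the share of all tested features called in that comparison, in either direction. Before these changes it was 18.6% in Csl4, 18.9% in Mtr3, 21.1% in Dis3 and 8.96% in Rrp6. Median centring gave 6 in Mtr3 (17.1%), 0 in Rrp6 (7.74%) and 1 in each core comparison (31.6% for Rrp6 and Rrp47, 21.3% for Dis3). Without the filter the counts were 0 in Rrp6 (3.57%), 2 against the other depletions (5.14%) and 1 in the F test (25.6%). Without the trend they were 0 in Rrp6 (7.91%) and 1 in the F test (53.3%). Array weights gave 0 in Rrp6 (1.47%) and 13 against the other depletions (19.8%). With only the arrays of the groups compared, 3 genes were called in Csl4 (5.79%), 2 in Dis3 (4.34%) and 0 in Rrp6 (0.394%). Without the arrays numbered 2 of Csl4, Dis3 and Rrp6, counts were 6 in Mtr3, 0 in Rrp6, 3 for core against Rrp6 and Rrp47 and 12 against the other depletions. Without the 4 Rrp4 arrays the F test called 0 (28.7%), against 4 with all arrays (57.5%), with 6 of 6 over the mean of depletions (19.1%). With only Rrp4 3 and Rrp4 4, PCNA in Rrp4 was at 0.86 (adjusted p = 0.052). Without both GFP arrays each core comparison called 1 gene, in place of 0 (40% for Rrp6 and Rrp47, 25.7% for Dis3). The cause of these changes was not tested.

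With 1 array left out, the counts ran from 4 to 6 in Csl4, Dis3 and Rrp47, 1 to 4 in Rrp4, 3 to 4 in Rrp40 and Rrp46, 3 to 5 in Mtr3 and Ski6, 0 to 5 in Rrp6 and 3 to 6 over the mean of depletions. They ran from 0 to 3 for core against Rrp6 and Rrp47, 0 to 2 for core against Dis3, 4 to 19 against the other depletions and 0 to 5 in the F test. Directions reversed for Mcm5 in Rrp6 without Rrp6 2 (-0.10) and without the 3 arrays numbered 2 (-0.10), and without Rrp6 1 it was 1.38. They reversed for Mcm6 in Rrp6 as deposited (-0.02), without GFP 1 (-0.05), without Rrp6 2 (-0.23) and without those 3 arrays (-0.23), and without Rrp6 1 it was 0.57. As deposited, Mcm6 and PCNA in Rrp4 against the other depletions became 0.98 and 0.83, and dpa in Dis3 became -0.23.

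With arrays matched by replicate number, the correlation of array differences over 36 pairs of groups ran from -0.347 to 0.41, with 4 over 0.1. Whether some groups share a batch by replicate number was not tested. With the replicate block 38 of 54 pairs against GFP were called in place of 40. It gave 0 genes in Rrp6 (6.66% of all features), 3 pairs against other depletions (8.38%) and 0 genes in the F test (40.1%). Of the 54 list genes, 50 rose as deposited (43.6% of all probe sets), 32 with median centring (11.1%) and 23 with array weights (8.28%).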
